A study of Mus musculus with 99 samples.

Results

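Gastrocnemius, the fast calf muscle, was compared between mice labelled as exercised and sedentary at 18 months of age. The members are all gastrocnemius libraries whose labels give that age: 13 exercised and 10 sedentary, 23 of the 97 libraries with a column in the count table and of the 33 from this muscle. Every animal was a wild-type male C57BL/6 mouse, perfused before its tissues were taken, and exercise was the single labelled difference between the groups. The labels do not say what the exercise was, how long it lasted, or how long before death it ended. They also do not say that each library came from a separate animal, so p-values measure the spread between these libraries, which may be partly technical. A library is named as Gas_ and the number that its title carries.

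Muscle fibres are typed by the myosin heavy chain they use. Slow fibres use the product of Myh7, fast oxidative fibres that of Myh2, intermediate fast fibres that of Myh1 (type IIx), and the fastest, most glycolytic fibres that of Myh4 (type IIb). Mouse gastrocnemius is mostly built of the fastest type. Endurance training is known to move fibres from the glycolytic towards the oxidative end, with more mitochondria, capillaries and myoglobin, and trained muscle can also raise the enzymes that make fatty acids from citrate.

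The libraries were of skeletal muscle by their markers. In deposited TPM, an abundance corrected for gene length and scaled to a fixed sum in each library, the alpha-actin gene Acta1 lay between 35120 and 48631 in sedentary and between 35184 and 46004 in exercised libraries, and Ckm, muscle creatine kinase, between 19276 and 21464 and between 14889 and 19879. Total counts ran from 32655000 to 62769300 per library. Exercised Gas_9.1 was the deepest and deviated most from the mean of the 23, with a root mean square of 0.306 on the log2 scale, followed by exercised Gas_10.2 with 0.293. Deviations of exercised Gas_10.2 and Gas_10.3 correlated with gene length across genes (r = -0.467 and -0.452). Sedentary Gas_6.1 carried the most red cell RNA, with 4732 TPM over 9 haemoglobin and related genes against a sedentary median of 336. Mitochondrially encoded mRNAs took 9.11 to 11.6% of counts in sedentary and 10.28 to 16.5% in exercised libraries. No library was a copy of another.

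Of 14808 genes tested with edgeR, 184 differed at an adjusted p under 0.05, which is 1.24%. Of these, 132 were higher in exercised muscle (0.891%) and 52 lower (0.351%). At an unadjusted p under 0.05 there were 2909, of which 1775 were higher. Over all genes tested 53.04% had a positive fitted change, and the counts of positive members below are to be read against that share. DESeq2 called 670 of the 27638 genes given a p-value, and limma 769 of 14808. The DESeq2 total includes genes too low for the edgeR filter, so its share of calls may be understated beside lists of expressed genes. With the first part of the library number as a replicate block, edgeR called 1360 of 14808. Member counts below, from these fits or at an unadjusted p, are to be read against these totals. The median change over all genes was 0.01 on the log2 scale (exercised minus sedentary, as for every fold change here). Without exercised Gas_9.1 there were 56 calls, and without Gas_9.1 and Gas_10.2 there were 54, of which 52 were among the 184. The split depended on scaling: with library totals alone 355 genes were higher and 33 lower, and with mitochondrially encoded genes left out 91 were higher and 58 lower.

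The groups did not overlap for 2 of the 14808 genes (0.0135%), both picked out after their values were seen. Pon2, a paraoxonase, ran from 33.8 to 38.7 CPM (counts relative to the TMM-scaled library total) in sedentary and from 38.8 to 49.2 in exercised libraries, a log2 difference of 0.22 ± 0.04 (SE; adjusted p = 0.025). Pcyt1a, a rate-setting enzyme of phosphatidylcholine synthesis, ran from 147 to 163 CPM in sedentary and from 135 to 146 in exercised libraries, a difference of -0.13 ± 0.03 (adjusted p = 0.0371).

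The call with the lowest adjusted p among the fibre genes was Myh1 (chromosome 11, 67200052 to 67224575, plus strand, GRCm38). Sedentary libraries lay between 2330 and 3662 CPM with a median of 3258, and exercised libraries between 3379 and 12689 with a median of 6554. All 13 exercised libraries were above the sedentary median and 11 were above the highest sedentary library. The mean rose from 3157 ± 428 (SD, n = 10) to 6601 ± 2510 (SD, n = 13), a log2 fold change of 1.06 ± 0.17 (SE; edgeR adjusted p = 0.00711). The exercised group was spread far more widely than the sedentary group: exercised Gas_5.4 and Gas_10.3, at 3379 and 3507 CPM, sat within the sedentary range, whereas Gas_7.1 and Gas_9.1 reached 9545 and 12689. The call held in all 23 fits that left out 1 library, and without Gas_9.1 the fold change was 0.95. The 10-month sedentary libraries, which entered no test here, had a median of 3181 CPM.

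Its neighbours in the same cluster missed the edgeR threshold narrowly, with fitted values of opposite sign, and passed in some other fits. For Myh4 (chromosome 11, 67238029 to 67260446) sedentary libraries ran from 54182 to 73142 CPM (median 66418) and exercised ones from 31932 to 63276 (median 52282). Every exercised library was below the sedentary median, and 10 of 13 were below the lowest sedentary library. The difference was -0.33 ± 0.09 with an adjusted p of 0.0586. Myh4 was called in 7 of 13 alternative settings, DESeq2 (adjusted p = 0.0105) and limma (0.0244) among them, but in only 4 of 23 leave-one-out fits. Myh2 (chromosome 11, 67171027 to 67197517) ran from 1772 to 3189 CPM (median 2569) in sedentary and from 2301 to 5581 (median 3569) in exercised libraries, a difference of 0.50 ± 0.14 (adjusted p = 0.0666). For Myh2, 7 of 13 exercised libraries exceeded the highest sedentary one and the other 6 were within the sedentary range, Gas_10.3 and Gas_5.4 lowest. Myh2 was called in 6 of 13 alternative settings, with an adjusted p of 0.0193 by DESeq2 and 0.0412 by limma. Only 3 of 23 leave-one-out fits called Myh2. Slow Myh7 did not pass the test, running from 130 to 270 CPM in sedentary and from 96.3 to 245 in exercised libraries (-0.15 ± 0.15, adjusted p = 0.632), where 4 of 13 were below the lowest sedentary one.

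**Figure D1:**
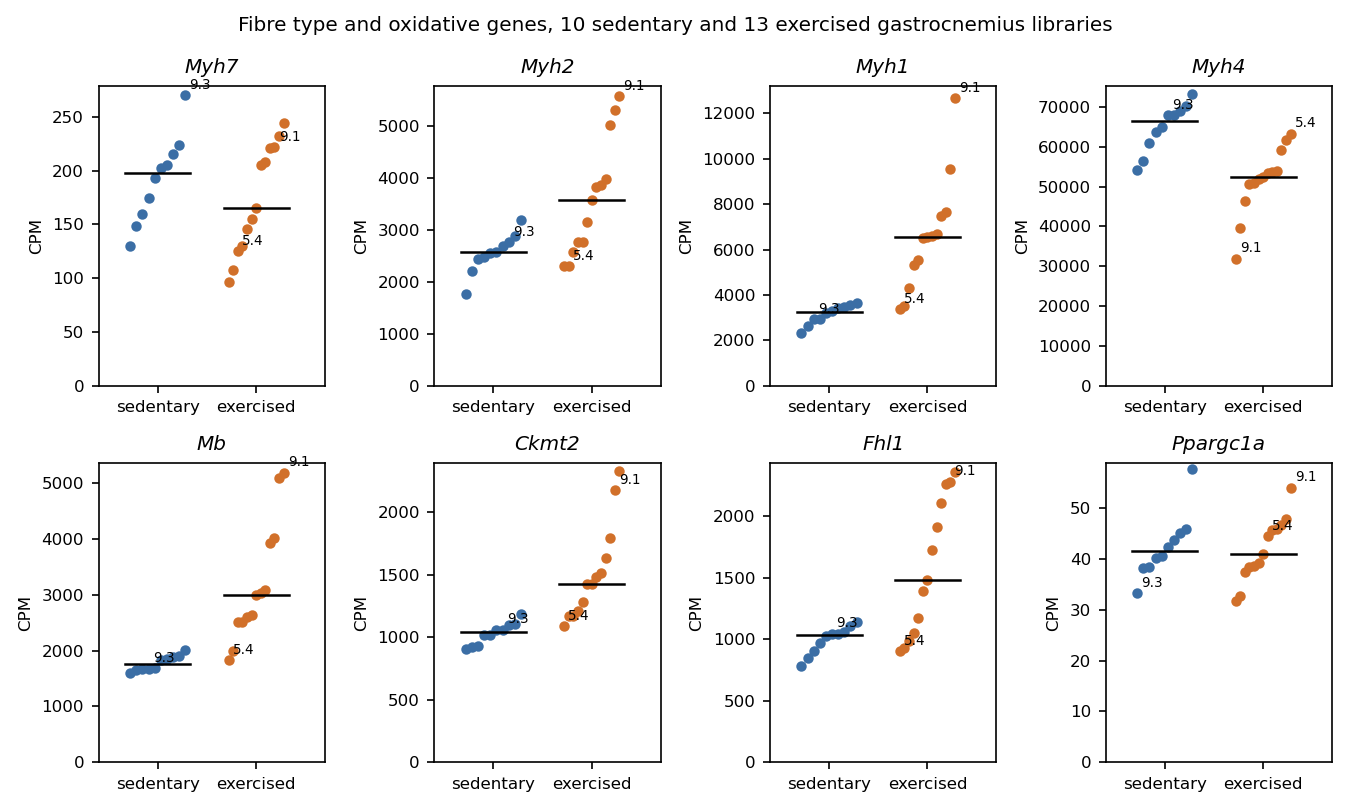
CPM of 8 fibre type and oxidative genes, 1 point per gastrocnemius library, with the group median as a bar (linear axes from 0; Gas_9.1, Gas_5.4 and Gas_9.3 are numbered). Myh1 and Mb are above the sedentary median in all 13 exercised libraries, highest in Gas_9.1 and lowest in Gas_5.4, while Myh7 and Ppargc1a overlap.

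Set against each other per length, the 4 adult transcripts differed in composition between the groups. Myh4 made up 90.4 to 93.3% of their summed TPM in sedentary libraries, a narrow band, and 63.4 to 91.6% in exercised ones (median 83.9%). Myh1 held 3.90 to 5.45% in sedentary and 4.90 to 25.2% in exercised libraries (median 10.25%). Myh2 held 2.58 to 4.28% and 3.32 to 11.0%, and Myh7 held 0.182 to 0.349% and 0.144 to 0.421%. Exercised Gas_9.1 had the lowest Myh4 share, 63.4%, and Gas_7.1 the next, 72.5%. Exercised Gas_5.4, at 91.6%, was inside the sedentary band. These shares are a description with no test. The adult fast myosin genes are close in sequence, and how reads matching more than 1 of them were counted is not given in the sources used here, so some reads could have been exchanged between them. Of the exon bases of Myh1, 8.12% also lie in an antisense transcript, Myhas, and reads of the 2 cannot be told apart because the library kit does not mark strand.

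**Figure D2:**
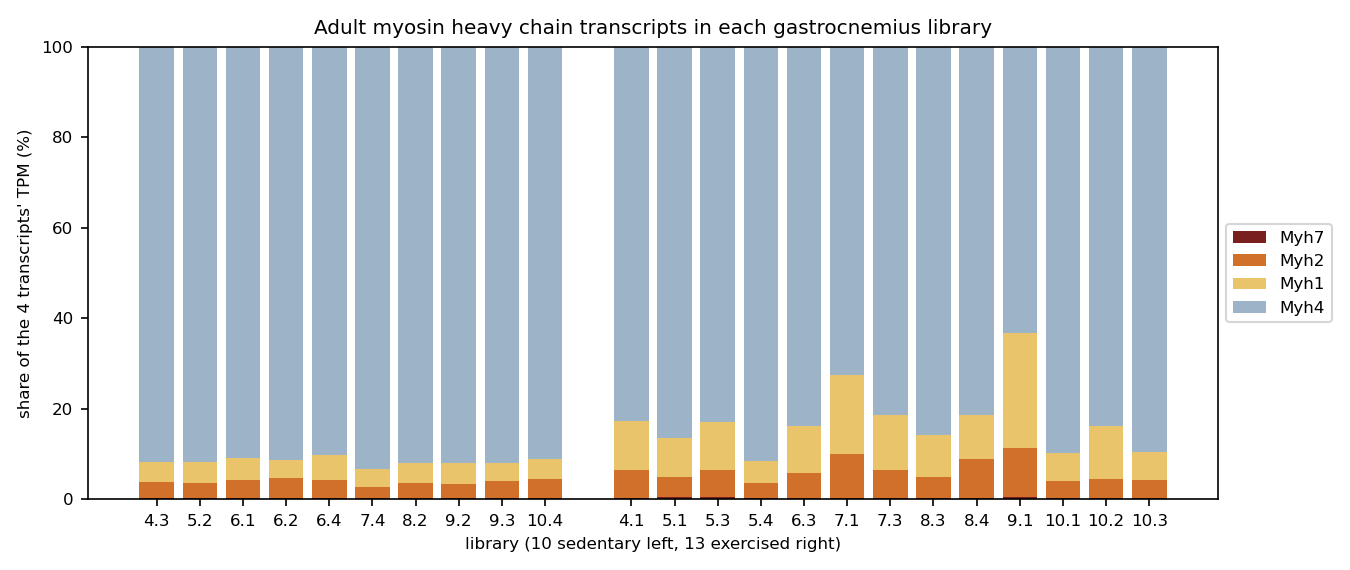
Share of each adult myosin heavy chain in the summed TPM of the 4 transcripts, as a stacked bar per library from 0 to 100%. Sedentary bars are nearly alike, with Myh4 at 90.4 to 93.3%, and exercised bars range from 63.4% in Gas_9.1 to 91.6% in Gas_5.4.

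Among 15 fast fibre genes edgeR called Myh1 alone, whereas DESeq2 and limma each called 2 higher and 4 lower, and 13 of the 15 had a negative fitted change (list median -0.11, against 0.01 over all genes). The 2 exceptions were Myh1 and Myh2. Actn3, the alpha-actinin of fast glycolytic fibres, had a median of 9324 CPM in sedentary and 7825 in exercised libraries (-0.32 ± 0.09, adjusted p = 0.062), and Mybpc2, fast myosin-binding protein C, 7140 and 5751 (-0.29 ± 0.08, adjusted p = 0.0638). Of 13 slow fibre genes none was called by edgeR, 2 passed an unadjusted p under 0.05, DESeq2 called 1 and limma called 1. Their median was 0.01, between -0.01 and 0.04 with other scalings. With the replicate block the median was 0.10, 11 of 13 were positive and 1 was called. The genes at an unadjusted p under 0.05 were the calcium pump regulator Sln (0.82 ± 0.30, adjusted p = 0.133) and the calcium store protein Casq2 (0.45 ± 0.13, adjusted p = 0.0748).

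Mb, which encodes the oxygen carrier myoglobin (chromosome 15, 77015487 to 77050670, minus strand), moved much as Myh1 did. Its sedentary values ran from 1607 to 2018 CPM (median 1756) and its exercised values from 1823 to 5182 (median 2993). Again 11 of 13 exercised libraries were above the whole sedentary range, with Gas_5.4 lowest, Gas_10.1 next, and Gas_7.1 and Gas_9.1 highest. The rise was 0.84 ± 0.14 (adjusted p = 0.00874), held in all 23 leave-one-out fits, and was 0.76 without Gas_9.1. Of the exon bases of Mb, 29.1% are shared with Gm49540 on the opposite strand. Ckmt2, the mitochondrial creatine kinase of striated muscle, ran from 909 to 1183 CPM in sedentary (median 1040) and from 1091 to 2324 in exercised libraries (median 1427), a rise of 0.56 ± 0.11 (adjusted p = 0.0231). Its groups overlapped slightly, and the call was lost without sedentary Gas_7.4. Fhl1, a LIM domain protein of the sarcomere, rose by 0.67 ± 0.16 (adjusted p = 0.0383), but 3 exercised libraries were below the sedentary median of 1038 CPM, and without Gas_9.1 its adjusted p was 0.0663.

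Respiratory chain genes had small positive fitted changes, of which few passed the main edgeR test. All 51 nuclear-encoded subunits tested had a positive fitted change, 45 passed an unadjusted p under 0.05, and edgeR called 2. DESeq2 called 16, limma 10, edgeR with library totals 24 and edgeR with the replicate block 32. With no filter on low counts or with the 10-month libraries in the fit edgeR called 0. The median was 0.17 and the range ran from 0.06 to 0.35. The calls were Sdhb, the iron-sulphur subunit of complex II (median 347 CPM in sedentary and 434 in exercised libraries, 0.31 ± 0.07, adjusted p = 0.0383), and Cox7a1, the muscle form of a cytochrome c oxidase subunit (175 and 203 CPM, 0.35 ± 0.09, adjusted p = 0.0457). All 13 exercised libraries were above the sedentary median for both genes. Without Gas_9.1 the adjusted p was 0.0636 for Sdhb and 0.0716 for Cox7a1, and no subunit was called, while all 51 were positive with a median of 0.17. All 13 mitochondrially encoded mRNAs were also positive, 7 at an unadjusted p under 0.05, with a median of 0.19 and no edgeR call (DESeq2 called 4, limma 3). The highest mitochondrial share of counts, 16.5%, was that of Gas_9.1, and its part in these values was not tested.

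In the tricarboxylic acid cycle list all 18 genes were positive (median 0.14), with 1 call in the main fit, Mdh1. DESeq2 called 5 genes, limma 4 and edgeR with the replicate block 9. Mdh1, the cytosolic malate dehydrogenase that the list holds beside the mitochondrial enzymes, had a median of 574 CPM in sedentary and 705 in exercised libraries (0.33 ± 0.07, adjusted p = 0.0371). Citrate synthase, Cs, often used as an index of mitochondrial content, did not pass the test (0.08 ± 0.05, adjusted p = 0.409). Of 30 genes of fatty acid uptake and oxidation, 20 were positive and 1 was called, the electron transfer flavoprotein subunit Etfa (0.26 ± 0.06, adjusted p = 0.0371). Without Gas_9.1 Mdh1 had an adjusted p of 0.0527 and Etfa one of 0.0517. Phyh, the peroxisomal enzyme that starts the breakdown of branched phytanic acid, rose from a sedentary range of 149 to 179 CPM to an exercised range of 169 to 289 (0.38 ± 0.07, adjusted p = 0.0164), with 12 of 13 exercised libraries above the sedentary maximum. The mitochondrial biogenesis list had no edgeR call among 22 genes (5 at an unadjusted p under 0.05, limma 1, DESeq2 0) and a median of -0.00, which was 0.03 with library totals. Its best known member, the coactivator Ppargc1a, ran from 33.3 to 57.6 CPM in sedentary and from 31.7 to 53.9 in exercised libraries (-0.02 ± 0.08, adjusted p = 0.917).

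Leaving out called genes whose average log2 CPM was under 1, the 4 largest fold changes were in fatty acid synthesis, where citrate is carried out of the mitochondrion by Slc25a1, split by Acly, built into palmitate by Fasn and lengthened by Elovl6. Elovl6 ran from 0.826 to 3.09 CPM in sedentary (median 1.09) and from 1.13 to 28.3 in exercised libraries (median 2.98), a rise of 1.94 ± 0.46 (adjusted p = 0.0383). Fasn ran from 26.9 to 95.0 CPM (median 34.3) and from 34.3 to 508 (median 79.2), a rise of 1.54 ± 0.35 (adjusted p = 0.0373). Acly ran from 15.1 to 29.7 CPM (median 19.2) and from 19.8 to 208 (median 37.9), a rise of 1.37 ± 0.30 (adjusted p = 0.0354). Every exercised library was above the sedentary median for these genes, but the groups overlapped at both ends: sedentary Gas_9.3 was the highest sedentary library for each of them and exercised Gas_5.4 the lowest exercised. Slc25a1 followed the same order, from 4.01 to 10.38 CPM (median 5.24) and from 5.37 to 41.4 (median 9.84), a rise of 1.3 ± 0.27 (adjusted p = 0.0268).

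Exercised Gas_9.1 stood far above the rest in this group of genes. Its Fasn value of 508 CPM compares with 150 in the next library, Gas_8.3, and its Elovl6 value of 28.3 CPM with 4.50 in Gas_4.1. Leaving it out lowered the fold changes to 1.14 for Elovl6, 1.1 for Fasn, 0.92 for Acly and 1.02 for Slc25a1, with adjusted p-values of 0.0165, 0.0368, 0.00455 and 0.0196. The sizes of the rises therefore depended on Gas_9.1 and the 4 calls did not. Over the leave-one-out fits Elovl6 was called in 11 of 23, Fasn in 12, Acly in 16 and Slc25a1 in 20.

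**Figure D3:**
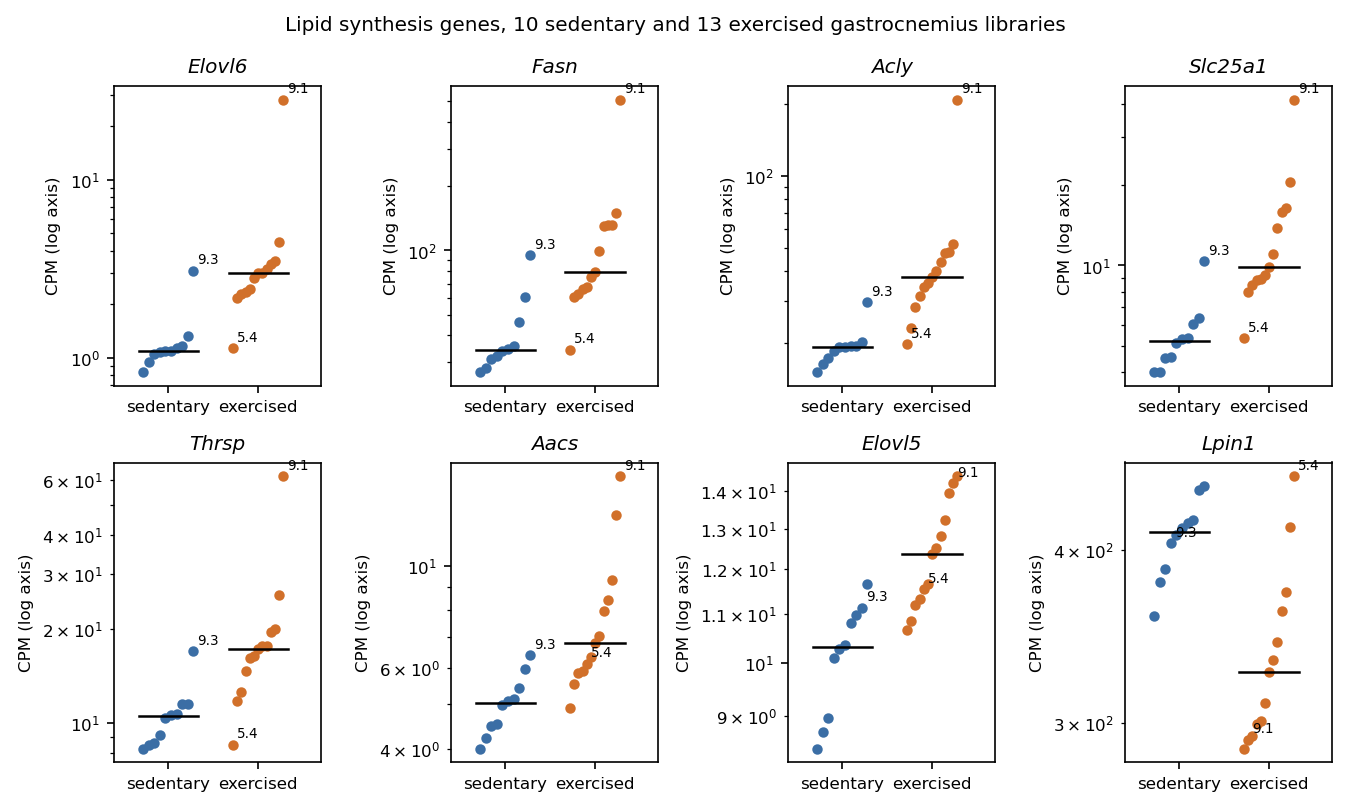
CPM of 8 lipid synthesis genes on log axes, 1 point per gastrocnemius library, with the group median as a bar (Gas_9.1, Gas_5.4 and Gas_9.3 are numbered). Exercised Gas_9.1 is highest for Elovl6, Fasn, Acly, Slc25a1, Thrsp and Aacs, sedentary Gas_9.3 is highest of its group for the same 6 genes, and Lpin1 is lower in most exercised libraries.

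Of the 20 tested genes of lipogenesis and lipid storage, 5 rose and 1 fell, 14 were positive, and the median was 0.44. Without Gas_9.1 there were 4 rises and no fall, and the median was 0.32. The other rises were Thrsp, a regulator of lipogenic enzymes (0.92 ± 0.24, adjusted p = 0.0488), and the elongase of polyunsaturated fatty acids Elovl5 (0.29 ± 0.06, adjusted p = 0.0371). Lpin1, a phosphatidate phosphatase and coregulator, fell from a median of 412 CPM to 327 (-0.27 ± 0.07, adjusted p = 0.0457), and only Gas_5.4 exceeded the sedentary maximum. Members that did not pass the test included the desaturase Scd1 (0.99 ± 0.28, adjusted p = 0.0667), Agpat2 of triglyceride synthesis (0.92 ± 0.24, adjusted p = 0.056), the first committed enzyme Acaca (0.66 ± 0.20, adjusted p = 0.0831) and the transcription factor Srebf1 (0.27 ± 0.12, adjusted p = 0.203). Outside the list, Aacs, which activates acetoacetate for lipid synthesis, rose by 0.66 ± 0.16 (adjusted p = 0.0457), and Car5b, a mitochondrial carbonic anhydrase, by 0.81 ± 0.19 (adjusted p = 0.0383). Cholesterol synthesis had no edgeR call among 21 genes (6 at an unadjusted p under 0.05, DESeq2 3, limma 2), with 17 positive and a median of 0.12.

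Fat cells also express these enzymes, so adipocyte markers are given beside them. Of 14 such markers none was at 0 in all libraries, 13 were tested, 11 were positive and 1, the fatty acid carrier Fabp4, was called (0.38 ± 0.09, adjusted p = 0.0383). The fat cell hormone Adipoq had close medians, 9.05 CPM in sedentary and 9.14 in exercised libraries, with ranges from 5.27 to 13.1 and from 4.60 to 26.1. Other markers had higher exercised medians without passing the test: Cfd, adipsin, with 36.1 and 55.3 CPM (0.75 ± 0.26, adjusted p = 0.112), Retn, resistin, with 3.07 and 5.198 CPM (0.82 ± 0.27, adjusted p = 0.1), and the adrenergic receptor Adrb3 with 0.395 and 0.942 CPM (1.13 ± 0.44, adjusted p = 0.152). Medians of Plin1 were close, 4.82 and 4.85 CPM, and that of Lep, leptin, was lower in exercised libraries, 0.966 and 0.796 CPM. At an unadjusted p under 0.05, 6 markers were higher and 1 was lower. The highest value was in exercised Gas_9.1 for Adipoq, Cfd (157 CPM), Retn, Adrb3 and the lipid droplet protein Plin1 (14.3 CPM, against a sedentary maximum of 8.003). The summed TPM of the list, which includes Car3, a gene also expressed by muscle fibres, ran from 2457 to 4206 in sedentary and from 2467 to 4566 in exercised libraries. The list median was 0.38, and without Gas_9.1 it was 0.21 and no marker was called. In bulk muscle, fewer cells of a type and less RNA per cell cannot be told apart, and the part of fat cells in the lipid synthesis values was not tested.

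Fasn, Acly and Slc25a1 all rose, and the 250 bases before their RefSeq transcription starts (GRCm38.p6) are shown, 5′ to 3′ in the direction of the gene. Capitals mark the CCAAT box (CCAAT) and the GC box (GGGCGG) on either strand, so the antisense forms read as ATTGG and CCGCCC.
Fasn, chr11:120824548-120824797, minus strand: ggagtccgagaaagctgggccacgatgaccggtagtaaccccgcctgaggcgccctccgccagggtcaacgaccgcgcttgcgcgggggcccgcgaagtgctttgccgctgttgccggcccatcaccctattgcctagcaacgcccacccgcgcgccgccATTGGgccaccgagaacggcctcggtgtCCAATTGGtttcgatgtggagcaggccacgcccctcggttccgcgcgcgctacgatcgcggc
Acly, chr11:100528001-100528250, minus strand: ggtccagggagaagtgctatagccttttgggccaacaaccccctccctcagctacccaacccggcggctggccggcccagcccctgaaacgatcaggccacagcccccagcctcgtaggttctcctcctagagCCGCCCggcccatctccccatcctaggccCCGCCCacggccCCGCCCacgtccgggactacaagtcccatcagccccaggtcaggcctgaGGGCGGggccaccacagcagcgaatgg
Slc25a1, chr16:17928220-17928469, minus strand: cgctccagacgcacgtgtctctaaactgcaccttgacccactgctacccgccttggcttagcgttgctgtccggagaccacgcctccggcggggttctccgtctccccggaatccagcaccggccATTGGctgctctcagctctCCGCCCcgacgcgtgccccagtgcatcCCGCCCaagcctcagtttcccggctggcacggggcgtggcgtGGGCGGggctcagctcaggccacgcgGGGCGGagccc

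The Fasn window held 3 CCAAT boxes, on the antisense strand 90 and 59 bases before the start and on the sense strand 62 bases before it, where the last pair overlap in a palindrome. Acly held 4 GC boxes, and Slc25a1 held 4 GC boxes and 1 CCAAT box. The Elovl6 window, not printed, held neither box. Both motifs were picked after the expression values were seen and are common: 33.85% and 32.74% of 32851 RefSeq promoter windows hold them. A further 8 motifs were searched on both strands and none was found in these windows or in that of Elovl6. Among them were the sterol site TCACCCCAC (in 0.4962% of windows), the CAGCTG form of the E-box (13%) and the cyclic AMP element TGACGTCA (1.546%). Other forms of the E-box were not searched. The others were ERRE (TCAAGGTCA, 0.3866%), ARE (TGACNNNGC, 10.16%), AP-1 (TGAGTCA, 4.463%), the MEF2 core (TAAAAATAG, 0.4536%) and D-box (TTACGTAA, 0.1126%). No match says only that these letters are not in these windows.

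Genes of the connective tissue matrix formed the next group. Of 31 collagens and matrix genes, 28 were positive, 19 at an unadjusted p under 0.05, 3 rose and none fell by edgeR (median 0.28), and DESeq2 and limma each called 6 higher. The 3 were Lum, the keratan sulphate proteoglycan lumican, with medians of 17.0 and 26.2 CPM (0.67 ± 0.15, adjusted p = 0.0371), Col8a1, a short-chain collagen, with 4.24 and 6.28 CPM (0.60 ± 0.12, adjusted p = 0.0268), and Bgn, biglycan, with 48.1 and 73.0 CPM (0.52 ± 0.11, adjusted p = 0.029). In leave-one-out fits Lum was called in 13 of 23, Col8a1 in 20, Bgn in 15 and Mmp2 in 6. For Bgn all 13 exercised libraries were above the sedentary median, and sedentary Gas_6.1, at 72.5 CPM, was by far the highest of its group. Lum and Col8a1 each had 2 exercised libraries below that median. Fibrillar collagen Col1a1 did not pass the test (0.43 ± 0.15, adjusted p = 0.126). Mmp2, a gelatinase, rose by 0.40 ± 0.10 (adjusted p = 0.0488), the single call among 17 matrix proteases and inhibitors.

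Markers of matrix-producing cells are given beside these genes. All 14 fibroblast markers were positive and edgeR called 2 (DESeq2 5, limma 3), Lum, which is also in the matrix list, and Clec3b (0.29 ± 0.07, adjusted p = 0.0383). Their summed TPM ran from 916 to 1261 in sedentary and from 1032 to 1506 in exercised libraries, with none at 0 in all libraries. Tendon and cartilage markers, which can enter with the end of the muscle, had 10 of 12 positive, 0 edgeR calls (5 at an unadjusted p under 0.05, DESeq2 2, limma 1) and sums of 122 to 191 and 120 to 276 TPM. The tendon factor Scx overlapped, from 3.42 to 6.22 and from 2.64 to 7.33 CPM. The part of cell content in the matrix result was not tested.

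Vessel genes were also mostly positive. Among 29 endothelial and angiogenic genes 26 were positive, 14 at an unadjusted p under 0.05, with a median of 0.20. DESeq2 called 7 and limma 9, and edgeR 1, the secreted endothelial protein Egfl7 (34.1 and 41.5 CPM, 0.31 ± 0.07, adjusted p = 0.0383). Of its exon bases 14.1% are shared with Gm20532 on the same strand. Cdh5, the endothelial cadherin, ran from 57.9 to 77.6 CPM in sedentary and from 59.8 to 136 in exercised libraries, where 8 of 13 exceeded the sedentary maximum (0.37 ± 0.11, adjusted p = 0.0666). Vegfa, the main angiogenic growth factor, did not pass, with 3 exercised libraries above the sedentary range, 4 below it and 6 within it (0.06 ± 0.09, adjusted p = 0.769). A pericyte gene, Rgs5, a regulator of G protein signalling, had a lower adjusted p than the endothelial genes named here. It ran from 210 to 260 CPM in sedentary and from 249 to 425 in exercised libraries, 12 of 13 above the sedentary maximum (0.39 ± 0.07, adjusted p = 0.0164, called in all 23 leave-one-out fits). Egfl7 was called in 10 of the 23. The smooth muscle and pericyte list, with Rgs5 its single call, had 9 of 13 positive and sums of 2830 to 4117 and 3094 to 3559 TPM. Of 20 macrophage markers, 1 was called, Lyve1, which is also a lymphatic vessel gene (0.52 ± 0.13, adjusted p = 0.0457), and 10 were positive.

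**Figure D4:**
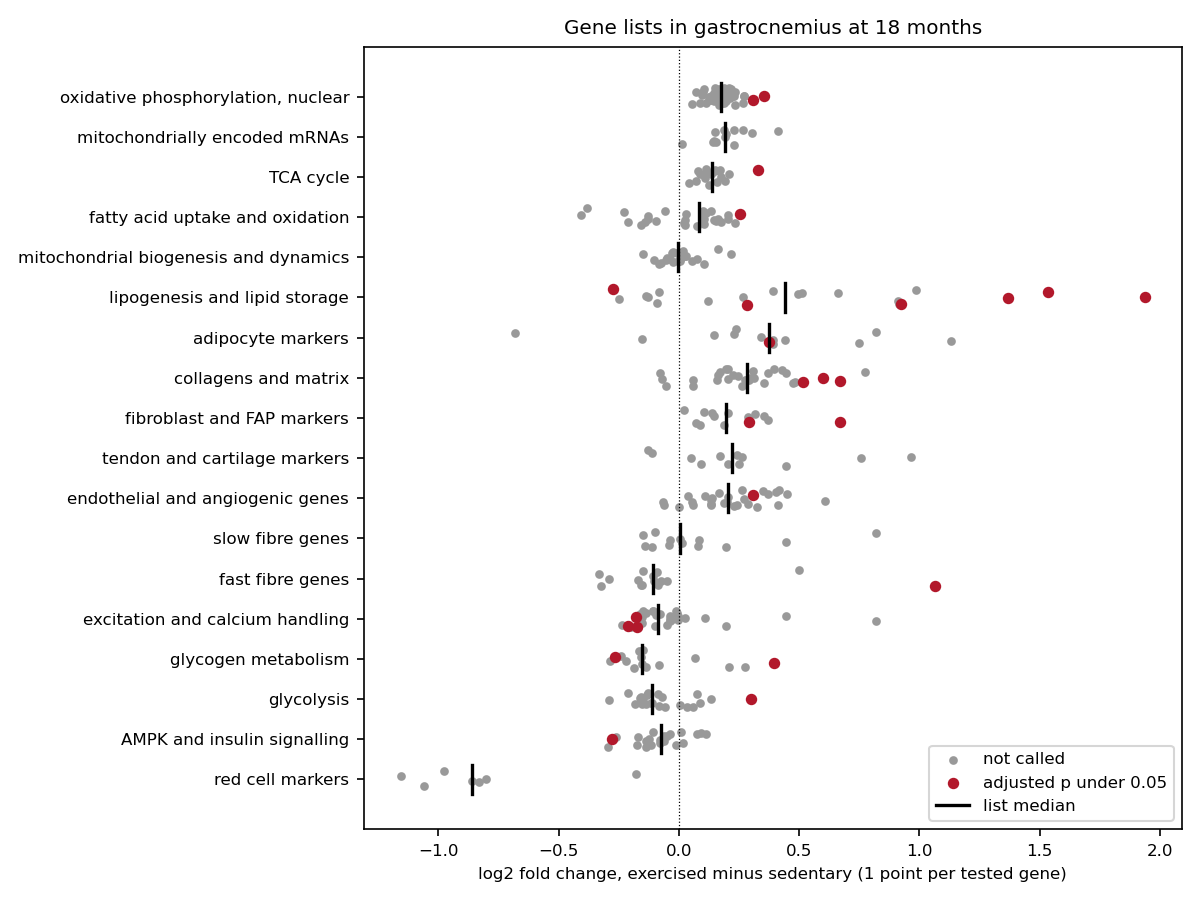
Log2 fold change (exercised minus sedentary) of every tested gene in 18 gene lists, with the list median as a black bar and calls at an adjusted p under 0.05 in red. All points of the nuclear respiratory chain and the tricarboxylic acid cycle are right of 0, the lipogenesis list reaches 1.94, and calcium handling, glycogen and fast fibre genes lie mostly left of 0.

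The 52 falls included members of several muscle gene lists. Of 30 genes of excitation and calcium handling, 25 had a negative fitted change and edgeR called 3 lower (DESeq2 and limma each called 6 lower and 1 higher). They were Cacna1s, the voltage sensor of the T-tubule (medians of 1245 and 1105 CPM, -0.21 ± 0.05, adjusted p = 0.0371), Scn4a, the muscle sodium channel (749 and 658 CPM, -0.18 ± 0.04, adjusted p = 0.0428), and Srl, sarcalumenin of the sarcoplasmic reticulum (1853 and 1614 CPM, -0.18 ± 0.04, adjusted p = 0.0457). All 13 exercised libraries were below the sedentary median for each of these 3 genes. Without Gas_9.1 none of the 3 was called, at adjusted p-values of 0.0536 for Cacna1s, 0.0636 for Scn4a and 0.0718 for Srl. The release channel Ryr1 did not pass (-0.20 ± 0.06, adjusted p = 0.0661). Of the exon bases of Cacna1s, 18.9% lie under an antisense gene.

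Glycogen metabolism had 11 of 15 genes negative (median -0.15), with 1 fall and 1 rise by edgeR (DESeq2 4 and 1, limma 4 and 2). Phkb, a regulatory subunit of phosphorylase kinase, which switches on glycogen breakdown, fell from a median of 689 to 570 CPM (-0.26 ± 0.06, adjusted p = 0.0354), and 11 of 13 exercised libraries were below the lowest sedentary one. Gbe1, the branching enzyme of glycogen synthesis, rose from 65.3 to 79.6 CPM (0.39 ± 0.10, adjusted p = 0.0457). In glycolysis 16 of 23 genes were negative and the single edgeR call was a rise of Ldhb (DESeq2 called 1 higher and 2 lower, limma 1 and 4), the lactate dehydrogenase subunit typical of heart and oxidative muscle (0.30 ± 0.08, adjusted p = 0.0488). The AMPK and insulin list had 19 of 24 negative with 1 fall, Prkab2, a regulatory subunit of AMPK enriched in muscle. It ran from 607 to 706 CPM in sedentary and from 436 to 659 in exercised libraries, 12 of 13 below the sedentary minimum (-0.28 ± 0.06, adjusted p = 0.0302). Leave-one-out fits called Phkb and Prkab2 in 16 of 23, Gbe1 in 8 and Ldhb in 5. Slc2a4, the insulin-responsive glucose transporter (-0.06 ± 0.04, adjusted p = 0.483), and Hk2, hexokinase (0.03 ± 0.08, adjusted p = 0.863), did not pass.

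The falls with the lowest adjusted p were mostly small. Fzd7, a Wnt receptor, ran from 65.3 to 87.4 CPM in sedentary (median 74.7) and from 47.6 to 67.1 in exercised libraries (median 56.7), with 10 of 13 below the sedentary minimum (-0.37 ± 0.06, adjusted p = 0.00839). Mars, the methionyl-tRNA synthetase, ran from 63.9 to 72.2 and from 54.2 to 64.0 CPM (-0.22 ± 0.04, adjusted p = 0.00839). C2cd2 ran from 204 to 224 and from 140 to 210 CPM (-0.28 ± 0.05, adjusted p = 0.0164). For both genes the groups touched in 1 exercised library only, Gas_8.3 for Mars and Gas_5.4 for C2cd2. Pnpla7, a lysophospholipase, changed by -0.21 (adjusted p = 0.0231) while Prss55, with a highest sedentary value of 1.63 CPM, changed by -0.89 (adjusted p = 0.0145). All of these were called in all 23 leave-one-out fits. Further falls were Mylk2, the skeletal muscle myosin light chain kinase (-0.27 ± 0.06), the splicing regulator Mbnl1 (-0.21 ± 0.04), Gpcpd1 of choline phospholipid breakdown (-0.34 ± 0.07) and Wbp1l (-0.27 ± 0.06), all with an adjusted p of 0.0268. Stat5b, which carries growth hormone signals, fell with an adjusted p of 0.0371 (-0.33 ± 0.08). Sorbs2 (-0.34), Arhgef37 (-0.34), Ttll7 (-0.35), Slx4 (-0.30) and Npc1 (-0.35) were also called lower. Leave-one-out fits called Wbp1l in 22 of 23, Mylk2 in 21, and Mbnl1 and Gpcpd1 in 20. They called Sorbs2 in 15, Stat5b in 13, Arhgef37 in 12, Ttll7 and Slx4 in 9 and Npc1 in 6. Without Gas_9.1 the adjusted p was over 0.05 for Stat5b, Arhgef37, Ttll7, Slx4 and Npc1.

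Beside Myh1, Mb, Phyh and Rgs5, 4 other rises held in every leave-one-out fit. Hmgb3, a chromatin protein, ran from 3.41 to 4.65 CPM in sedentary and from 4.26 to 6.403 in exercised libraries, 10 of 13 above the sedentary maximum (0.44 ± 0.07, adjusted p = 0.00711). Prss23, a serine protease, ran from 61.2 to 74.6 and from 66.4 to 91.9 CPM (0.24 ± 0.04, adjusted p = 0.0164), though 25.4% of its exon bases lie under its antisense gene Prss23os. Spinkl (0.97 ± 0.18, adjusted p = 0.0164) and Tmem116 (0.61 ± 0.12, adjusted p = 0.0231) rose from sedentary maxima of 0.729 and 1.19 CPM, and 25.9% of the exon bases of Tmem116 lie under the antisense gene Adam1a. Trp53i11 (0.73 ± 0.19, adjusted p = 0.0488) and the antioxidant enzyme Prdx6 (0.22 ± 0.06, adjusted p = 0.0457) had adjusted p-values of 0.0724 and 0.072 without Gas_9.1.

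Some genes often followed in trained or ageing muscle did not pass the main edgeR test. The ubiquitin ligases of muscle wasting had negative fitted values, Fbxo32 at -0.39 ± 0.13 (adjusted p = 0.106) and Trim63 at -0.29 ± 0.11 (adjusted p = 0.135), as did the growth inhibitor Mstn at -0.31 ± 0.13 (adjusted p = 0.189). In the atrophy list as a whole 18 of 22 genes were negative, with no call in the main fit and 7 at an unadjusted p under 0.05. DESeq2 called none, limma 1, and edgeR with the replicate block 4 lower. Nnat, an imprinted proteolipid gene, ran from 0.806 to 5.15 CPM in sedentary (median 1.89) and from 0.899 to 2.13 in exercised libraries (median 1.31), a difference of -0.85 ± 0.24 (adjusted p = 0.0662). In the edgeR fit with the replicate block Fbxo32 (adjusted p = 0.0443), Trim63 (0.0189), Mstn (0.0281) and Nnat (0.019) were called lower. That was the only 1 of 13 alternative settings to call Fbxo32, Trim63 or Mstn, and 0 of 23 leave-one-out fits called them. Nnat was called in 3 of 13 settings and in 1 of 23 leave-one-out fits. The acetylcholine receptor subunit Chrna1 (-0.03 ± 0.09, adjusted p = 0.908), the myogenic factor Myog (-0.10 ± 0.15, adjusted p = 0.785), slow troponin Tnnt1 (-0.04 ± 0.11, adjusted p = 0.903), Pdk4 (-0.41 ± 0.28, adjusted p = 0.447) and Pfkfb3 (-0.11 ± 0.16, adjusted p = 0.764) did not pass. Cdkn1a, the cell cycle inhibitor p21, ran from 18.1 to 26.4 CPM in sedentary (median 20.9) and from 12.5 to 44.4 in exercised libraries (median 14.99), a difference of -0.25 ± 0.16 (adjusted p = 0.421). For Cdkn1a 10 of 13 exercised libraries were below the lowest sedentary one, 2 were within the sedentary range, and Gas_8.4, at 44.4 CPM, was above it. Without Gas_8.4 the Cdkn1a difference was -0.44 and was called (edgeR adjusted p = 0.0242). That was the only 1 of 23 leave-one-out fits to call Cdkn1a, and 0 of 13 alternative settings did.

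Quadriceps libraries with the same numbers allowed a test of whether exercise acted differently in gastrocnemius. Over 21 numbers present in both muscles, 12 exercised and 9 sedentary, 0 of 15229 genes (0%) differed in their exercise effect by edgeR with the number as a block. At an unadjusted p under 0.05 there were 941, the smallest adjusted p was 0.104, and limma also called 0 (987 unadjusted). For Myh1 the gastrocnemius effect exceeded that of quadriceps by 0.18 ± 0.21 (adjusted p = 0.906), and fitted alone quadriceps gave 0.85 ± 0.15. The difference was -0.13 ± 0.15 for Mb, where quadriceps alone gave 0.90 ± 0.13, and -0.29 ± 0.15 for Myh2, where quadriceps alone gave 0.83 ± 0.10 with an adjusted p of 0.000153. Lipid synthesis genes had wide errors: the difference was 0.60 ± 0.43 for Elovl6, 0.49 ± 0.38 for Fasn and 0.05 ± 0.28 for Acly. Of the 184 genes called in gastrocnemius, 25 differed between muscles at an unadjusted p under 0.05 and none after adjustment. All 184, named calls included, were picked by their change in the same gastrocnemius libraries, so the 25 cannot be set against the 941. The named gastrocnemius calls with the smallest p for a difference were Lyve1 (0.69 ± 0.18, adjusted p = 0.626) and Clec3b (0.32 ± 0.11, adjusted p = 0.669), whose quadriceps values were -0.18 ± 0.17 and -0.06 ± 0.10.

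How many genes were called varied strongly with which library was left out. Calls fell to 31, 50, 27, 41, 17, 95, 96, 92 and 41 without sedentary Gas_4.3, Gas_5.2, Gas_6.2, Gas_6.4, Gas_7.4, Gas_8.2, Gas_9.2, Gas_9.3 and Gas_10.4, and rose to 357 without sedentary Gas_6.1. They fell to 83, 18, 36, 37 and 56 without exercised Gas_4.1, Gas_6.3, Gas_7.1, Gas_7.3 and Gas_9.1, and rose to 420 and 352 without exercised Gas_5.4 and Gas_10.1. The remaining 6 omissions moved the count by less than 1.5 times. Of 73 named genes 55 were called with all libraries. Of these, 14 were still called without sedentary Gas_7.4 and 15 without exercised Gas_6.3, the heaviest losses, 30 were still called without Gas_9.1, and 55 without exercised Gas_5.4 and without Gas_10.1. In all 23 fits 13 of the 55 were called, and no named call changed sign.

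**Figure D5:**
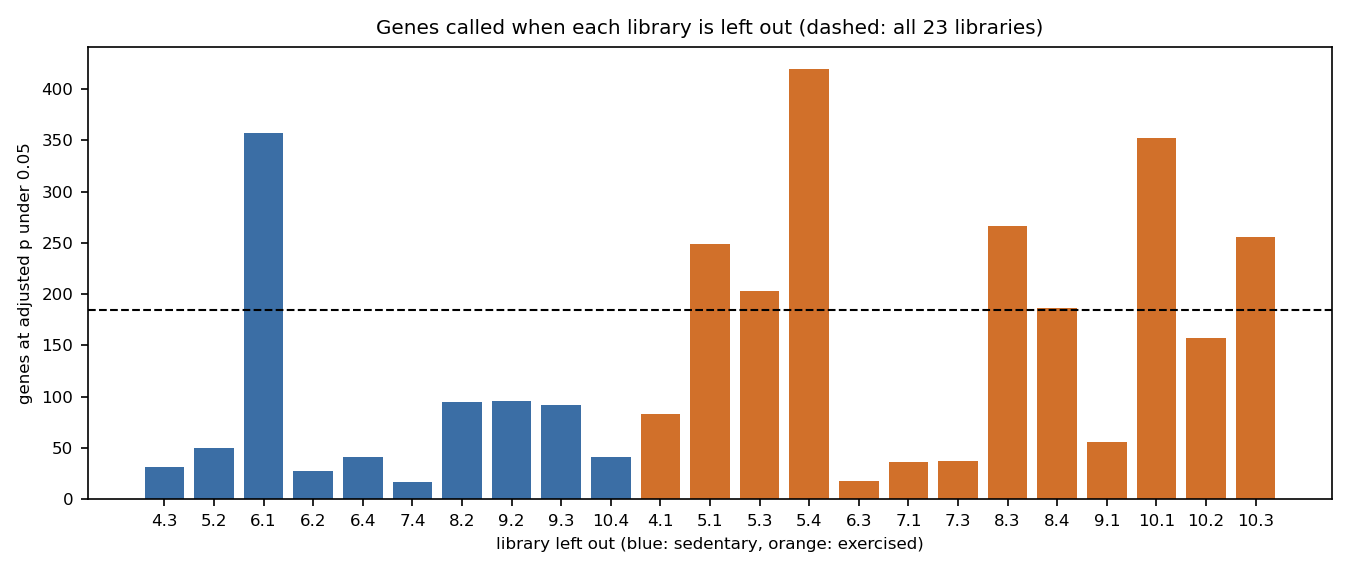
Number of genes at an adjusted p under 0.05 when each of the 23 libraries is left out (bars from 0, blue for sedentary and orange for exercised), with the 184 of the full set as a dashed line. The count runs from 17 without sedentary Gas_7.4 to 420 without exercised Gas_5.4.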

How the data were processed

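Polyadenylated RNA was sequenced from TruSeq RNA v2 libraries, per the labels. The submitters' processing notes name STAR 2.5.2b and the build GRCm38.p5. How reads were counted, by strand and where they match several genes, is not given in the sources used here. Counts were taken as deposited, raw and by Entrez gene. TPM values were made by the authors, and recomputing them from the counts and gene lengths gave the same values within rounding. Of 35870 genes, 49 have no symbol.

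The 23 libraries were fitted alone with edgeR 4.0.16 in R 4.3.3: TMM factors, filterByExpr (minimum count 10, minimum total 15), glmQLFit and glmQLFTest, two-sided, Benjamini-Hochberg over all genes tested, called at 0.05. Standard errors come from the F statistic. Alternatives used DESeq2 1.42.0 and limma 3.58.1. The effect in gastrocnemius was set against quadriceps in 1 edgeR fit; 2 labelled quadriceps samples were not analysed here. The script was tested on simulated data.

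Libraries, 53 gene lists and 8 motifs were chosen with earlier results of these data known. Lists are described by counts and medians, with no set test; 6 list symbols were not matched. Named genes are the 12 largest called changes at a mean log2 CPM of at least 1 and the 8 smallest p-values per direction, up to 4 called members per list, and 20 fixed genes, leaving out predicted genes, pseudogenes and small RNAs; exceptions are stated. Positions are from GENCODE M21 and promoters from RefSeq, matched by gene ID or symbol for all genes shown.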

Additional observations from a re-analysis of the deposited data

Results flagged for a closer look

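Among the 10 sedentary libraries, 79 measures (the 73 named genes and 6 library measures) were checked for a single library far from the others by Dixon's ratio, and 17 had one. Chance alone gives about 1 in 20, and the genes are not independent of each other. The 13 exercised libraries were not put through that check, so it does not cover exercised Gas_9.1.

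Sedentary Gas_9.3 was far above the rest for lipid synthesis genes: Elovl6 (3.09 CPM, next 1.32), Acly (29.7, next 20.1), Thrsp (17.0, next 11.5), Slc25a1 (10.38, next 6.402) and Fasn (95.0, next 60.7). It was also highest for Tnnt1 (204 CPM, next 153) and lowest for Mmp2 (19.97, next 26.6). Sedentary Gas_6.1, the library with the most red cell RNA, was highest for Bgn (72.5 CPM, next 52.7), Vegfa (250 CPM, next 205) and Ppargc1a (57.6, next 45.8), and lowest for Ttll7 (283 CPM, next 359), Stat5b (220 CPM, next 261) and Gpcpd1 (258 CPM, next 313). Sedentary Gas_8.2 was highest for Prss55 (1.63 CPM, next 1.07) and Phkb (780 CPM, next 713), Gas_6.4 for Hmgb3 (4.65, next 3.84) and Gas_9.2 for Clec3b (27.6, next 24.5).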

How the results depend on the processing

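The count of 184 calls moved by over 1.5 times under most settings, and the cause was not tested. It was 670 with DESeq2, 769 with limma and quality weights, 388 with library totals, 45 with no filter on low counts and 16 with the 10-month libraries in the fit. It was 930 with the slope on gene length as a covariate, 459 without exercised Gas_10.2 and Gas_10.3, 357 without sedentary Gas_6.1, and 54 without exercised Gas_9.1 and Gas_10.2, the last chosen after seeing the data. Leaving out 1 library gave 17 to 420. With RLE factors it was 165, without mitochondrially encoded genes 149 and with the stricter filter 215. No named call changed sign, and 11 of 55 were called under each of the 13 settings that could test them.

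The first part of a library's number was shared between groups. With it as a replicate block there were 1360 calls (801 higher, 559 lower), all 184 among them. In this fit 11 lipogenesis genes rose and 1 fell, and 12 endothelial, 10 matrix and 7 fibroblast genes rose. Of the excitation and calcium list 6 fell and 1 rose. Mean deviations of exercised and sedentary libraries were correlated within each of the 7 first parts. The correlations ran from -0.193 to 0.207, and 2 were over 0.1. In 0 did the exercised mean correlate best with the sedentary mean of its own first part. Each mean rests on 1 to 3 libraries, so this check cannot decide whether they share more than a number. The labels do not say what the first part marks.

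The difference between muscles gave 0 calls with and without the number as a block, by limma, and without the pair of Gas_10.3. Gas_10.2 had no quadriceps column and was in none of these fits. Low genes such as Prss55 and Spinkl rest on few counts.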

Other observations

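Red cell transcripts illustrate how far 1 library can carry a group. All 7 tested red cell genes had a negative fitted change, with a median of -0.86 and none called by edgeR (2 at an unadjusted p under 0.05, DESeq2 0). The haemoglobin gene Hbb-bs ran from 27.6 to 646 CPM in sedentary and from 31.6 to 143 in exercised libraries, with the top value in sedentary Gas_6.1. Without Gas_6.1 the list median was 0.55 and 6 of 7 were positive.

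Other groups were described by no result above. Immediate early genes had 21 of 26 positive and a median of 0.13, with no edgeR call (6 at an unadjusted p under 0.05, DESeq2 0, limma 0). Complement genes had 16 of 18 positive and a median of 0.13, with no edgeR call, 5 at an unadjusted p under 0.05, 3 by DESeq2 and 2 by limma. Lysosome and autophagy genes had 20 of 28 negative and 1 fall, Npc1, the lysosomal cholesterol exporter. Cytosolic ribosome and proteasome genes, with 37 and 26 tested, had medians of 0.00 and no edgeR call (1 and 0 at an unadjusted p under 0.05).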
